A study of Caenorhabditis elegans with 24 samples.

Results

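The comparison described here sets starved efk-1 mutants against starved wild type worms of Caenorhabditis elegans. Its members are 6 of the 24 RNA-seq libraries of the series, taken by their titles: 3 of starved efk-1(ok3609) animals and 3 of starved animals of the laboratory wild type strain N2. Every library came from whole hermaphrodites. Larvae synchronized at the L1 stage were raised on OP50 bacteria until the middle of the L4 stage, rinsed 5 times with M9 buffer and left for 8 h on plates with no bacteria. Fed animals of each strain were frozen at mid-L4, so a starved group differs from its fed group in 8 h of age as well as in food. The other groups compared below are fed efk-1(ok3609), starved zip-2(tm4248), which lacks a bZIP transcription factor, starved cep-1(gk138), a mutant of the worm p53 homolog, and fed N2, with 3 libraries each. Fed zip-2(tm4248) and fed cep-1(gk138), also 3 libraries each, are not compared. They entered the fits of all 24 libraries, in the gene filter and the shared estimate of spread. Library names below give the strain as efk1, zip2, cep1 or N2. Each mutant was 1 allele, and the labels do not say how often it was outcrossed. Nothing in the labels says that libraries of a group came from separate cultures, so p-values measure the spread between these libraries, which may be technical.

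EFK-1 is the eEF2 kinase of the worm. It phosphorylates elongation factor eEF2, which slows the elongation step of protein synthesis, and in mammals it is activated by the energy sensor AMPK and restrained by TOR and S6 kinase. The kinase is known for its part in surviving nutrient shortage. Much of the RNA discussed below encodes the cuticle, a collagen coat that the hypodermis secretes anew before each moult, the last of which turns an L4 larva into an adult.

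The totals of the 6 libraries lay between 17677381 and 29638706 estimated counts, and those of all 24 between 14622266 and 30266282. Levels are given in CPM, counts scaled to a common library size with factors from the trimmed mean of M values (TMM). Across the 15871 genes tested, the correlation of log2 CPM was 0.963 to 0.985 within the efk1 libraries, 0.965 to 0.987 within the N2 libraries and 0.913 to 0.975 between them. Libraries with the same replicate number deviated from their group means together. The correlation of these deviations across genes was 0.54 for number 1, 0.75 for number 2 and 0.39 for number 3. Unlike numbers were not always apart, since efk1 replicate 1 and N2 replicate 3 gave 0.49, more than the pair numbered 3. The other unlike pairs gave negative values. On the first principal component each efk1 library lay above the N2 library of its own number, by 90.2, 78.2 and 42.8 units for numbers 1, 2 and 3, and yet efk1 replicate 2 scored -13.2, close to the -15.7 of N2 replicate 1. The libraries numbered 2 stood apart from the others in both strains, and for many of the gene lists the counts are given with and without them.

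**Figure D1:**
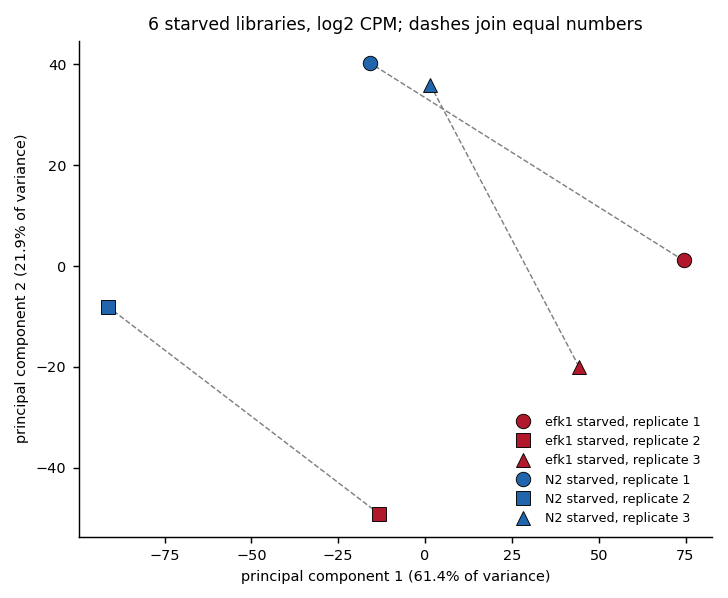
Scores of the 6 starved libraries on the first and second principal components of log2 CPM, with dashes joining libraries of equal number. The first component holds 61.4% of the variance, and along it every efk1 library lies to the right of the N2 library of its number, while efk1 replicate 2 (-13.2) lies beside N2 replicate 1 (-15.7).

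The targeted gene was measured first. efk-1 (WBGene00001160, WBcel235 chromosome III, 6164906 to 6168547, minus strand, 6 exons) had 10.6, 11.5 and 13.1 CPM in the starved efk1 libraries, against 73.0, 104 and 81.4 CPM in the starved N2 libraries. Every mutant library was far below every wild type library, and the log2 fold change was -2.87 (SE 0.20, edgeR quasi-likelihood test, Benjamini-Hochberg adjusted p = 2.82e-08). What remained was 13.6% of the N2 mean. In fed animals efk-1 had 8.83, 7.07 and 9.04 CPM in efk1, against 29.6, 36.8 and 38.4 CPM in N2. The deleted stretch is not given by the labels, so reads from the undeleted exons cannot be separated from intact transcript. F42A10.9, annotated on the opposite strand across efk-1, had 5.65, 6.42 and 7.01 CPM in efk1 and 3.63, 5.28 and 6.09 CPM in N2, with a log2 fold change of 0.34 that did not pass (adjusted p = 0.479, edgeR). None of the 8 tested genes within 10000 bases of efk-1, F42A10.9 included, passed in this fit, and F42A10.6 did in the fit with a replicate block described below (log2 fold change 0.67, adjusted p = 0.00391).

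None of the other genes of the EFK-1 pathway passed in this fit. eef-2, which encodes the substrate eEF2, had 6327, 11952 and 8423 CPM in efk1, against 6472, 10868 and 6954 CPM in N2 (log2 fold change 0.14, SE 0.32, edgeR adjusted p = 0.873). Its sign turned without N2 replicate 1 or without efk1 replicate 2. The AMPK catalytic subunit genes gave log2 fold changes of -0.058 for aak-1, a value whose sign turned without N2 replicate 2, and 0.20 for aak-2, and neither passed. The S6 kinase gene rsks-1 gave -0.14 (SE 0.21) and let-363, the TOR kinase gene, gave -0.14 (SE 0.31). zip-2 gave 0.28 (SE 0.25). In the starved libraries labelled zip2, zip-2 itself had 289.8, 158 and 211 CPM, against 309.8, 321 and 311 CPM in N2, so every library labelled zip2 held zip-2 reads, below the N2 range. cep-1 had 32.8, 33.7 and 40.4 CPM in efk1 and 45.9, 49.4 and 47.5 CPM in N2, so that the groups did not overlap. Its log2 fold change of -0.42 did not pass without the block (adjusted p = 0.575) and passed with it (adjusted p = 0.00672, edgeR). The starved libraries labelled cep1 had 45.5, 36.6 and 41.6 CPM of cep-1, just under the N2 range, so the level of cep-1 does not set them apart from the efk1 libraries. Whether the deleted stretches of these alleles are read was not tested.

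Across all genes, 306 differed between starved efk1 and starved N2 at an adjusted p under 0.05, which is 1.93% of those tested. Of these, 110 (0.693%) were higher and 196 (1.23%) lower in the mutant. This fit used all 24 libraries and no block. At an unadjusted p under 0.05 there were 2357 genes (14.9%). With the replicate number as a block, over the 6 libraries alone, 4461 genes passed (28.1%), 2384 of them higher (15%) and 2077 lower (13.1%), and all 306 were among them with the same sign. That fit has 2 residual degrees of freedom, and only 29.5% of its calls were at least 2-fold. Without both libraries numbered 2, the fit with no block called 161 genes, 14 higher and 147 lower. It called 172 without efk1 replicate 1, 159 without efk1 replicate 3 and 196 without N2 replicate 1, and in these 3 fits 27 to 35 genes were higher and 132 to 161 lower. Without N2 replicate 2 it called 206, of which 18 were higher and 188 lower, and without efk1 replicate 2 it called 313, of which 148 were higher. DESeq2 on all 24 libraries called 490, 274 higher and 216 lower.

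**Figure D2:**
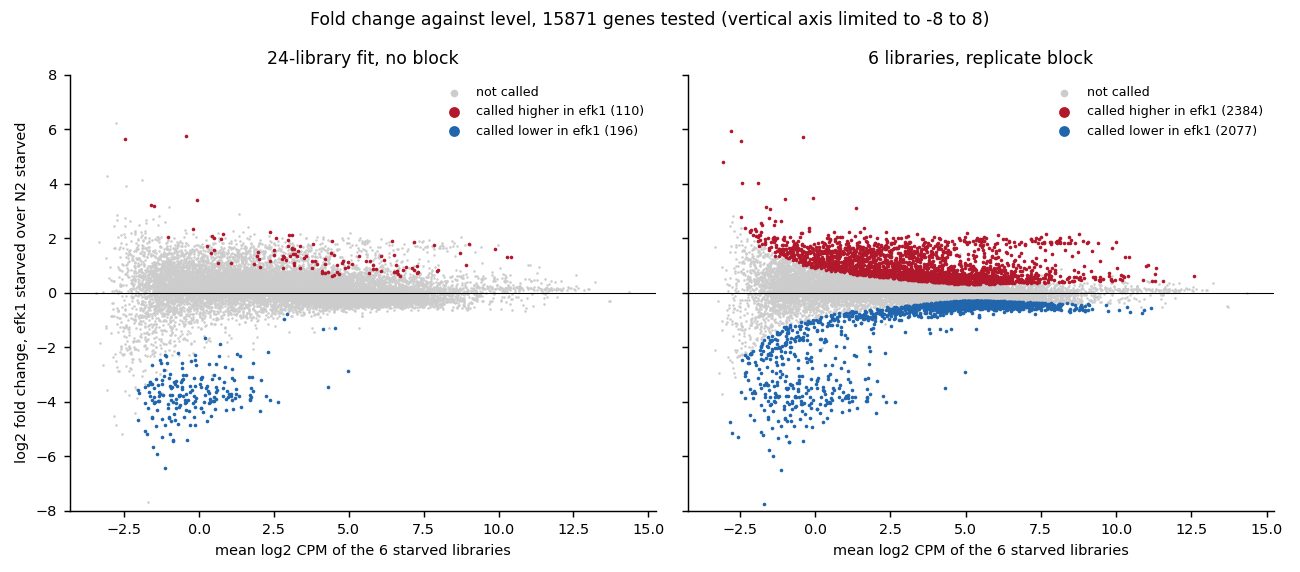
Log2 fold change of starved efk1 over starved N2 against the mean log2 CPM of the 6 libraries, 1 point per gene, for the 24-library fit without a block (left) and the 6-library fit with the replicate block (right). In the left panel the 196 genes called lower form a cloud of low-level genes, with a median of the mean log2 CPM of -0.38, and the 110 called higher lie at a median of 4.12. The right panel adds many small differences.

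Most of the lower genes were expressed at a low level, and some of these were near the limit of detection. Of the 196, 12 had a mean log2 CPM of at least 2, 56 had at most 3 counts in every efk1 library, and 194 were at least 2-fold lower. cope-1 (chromosome III, 13426264 to 13427721, plus strand), named for the epsilon subunit of the COPI vesicle coat, had 7.09, 5.23 and 5.63 CPM in efk1, against 64.7, 71.0 and 61.7 CPM in N2. The groups lay far apart, -3.46 on the log2 scale (SE 0.16, edgeR adjusted p = 1.16e-11), and the mutant kept 9.09% of the N2 level. It was also lower in fed animals, with 8.89, 7.71 and 8.60 CPM in efk1, against 88.3, 88.3 and 88.3 CPM in N2 (edgeR adjusted p = 1.52e-11). Starved zip2 (66.4, 69.7 and 56.7 CPM) and starved cep1 (60.3, 67.6 and 70.7 CPM) libraries had levels like those of N2.

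Y54G2A.36 (chromosome IV, 2897694 to 2901651) was lower in starved efk1 libraries, with 11.1, 10.5 and 12.1 CPM, than in starved N2 libraries, with 28.4, 37.1 and 20.6 CPM (log2 fold change -1.35, SE 0.24, edgeR adjusted p = 0.00242). In fed animals it had 4.74, 4.13 and 4.55 CPM in efk1 and 4.53, 4.17 and 2.81 CPM in N2, groups that overlapped, but the difference of the 2 contrasts did not pass (interaction -1.57, adjusted p = 0.0605, edgeR). Y71F9AL.4 (chromosome I) had 16.2, 12.9 and 14.999 CPM in efk1, against 33.7, 37.5 and 37.0 CPM in N2, and a log2 fold change of -1.296. Both genes stayed called without any single library.

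The remaining named genes among the lower ones had a different profile over the series. F26D2.16 had 0.983, 1.29 and 0.415 CPM in starved efk1, against 16.4, 17.99 and 20.6 CPM in starved N2, and the groups lay -4.35 apart on the log2 scale (SE 0.64, edgeR adjusted p = 0.000652). In starved zip2 it had 0.541, 0.362 and 0.562 CPM and in starved cep1 0.509, 3.64 and 4.43 CPM, so N2 was the highest of the 4 strains. try-8, a trypsin-like protease gene, had 1.35, 1.40 and 1.02 CPM in efk1, against 20.3, 11.8 and 19.8 CPM in N2, and its log2 fold change was -3.78. The C-type lectin genes clec-197 and clec-208 gave -3.94 and -3.21, F59B2.12 gave -4.03 and C49C3.11 gave -2.19. All 4 were below the N2 range in all 3 starved zip2 libraries too, at most 2.26 CPM for C49C3.11, and the mutants share the N2 libraries as their control. F59B2.12 and C49C3.11 each lost the call without 1 library (adjusted p up to 0.0709 without efk1 replicate 3 and 0.0585 without efk1 replicate 1, edgeR).

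C-type lectins made up 37 of the 196 lower genes, a set that takes in 1.23% of all genes tested. They are secreted sugar-binding proteins, many of them tied to defence, in a large family. In fed animals 28 of them were called lower in efk1 and 0 higher, beside 1.43% and 0.0819% of all genes. None was among the 12 genes called between starved efk1 and starved zip2. In starved efk1 against N2, 0 of 169 tested were called higher and 37 lower. The list's median log2 fold change was nonetheless 0.20, beside 0.077 over all genes tested. With the block, 40 were higher and 44 lower, beside 15% and 13.1% of all genes. Leaving out the pair numbered 2 gave 23 and 42, beside 1369 and 667 of all 15869 genes. The list thus held low-level members that were far lower in the mutant and members that were higher with the block, such as clec-230, with 12.003, 4.09 and 12.97 CPM in efk1, against 2.76, 0.812 and 5.28 CPM in N2 (block log2 fold change 1.75, adjusted p = 1.31e-05; 0.213 without the block, edgeR). Astacin-type metalloproteases split in the same manner. nas-17, nas-19 and nas-24 were lower, and nas-27 was higher, with 3.56, 0.828 and 5.12 CPM in efk1, against 0.256, 0.135 and 0.433 CPM in N2 (log2 fold change 3.38, adjusted p = 0.00273, edgeR). nas-24 lost its call without efk1 replicate 3 (adjusted p = 0.0819, edgeR, no block).

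Among the low-level lower genes were some known from male-specific sensory neurons, which were looked at after their values were seen. pkd-2, a polycystin gene, had 0.0819, 0.104 and 0.277 CPM in starved efk1, against 0.972, 0.541 and 1.298 CPM in starved N2 (log2 fold change -2.60, adjusted p = 0.0301, edgeR). cwp-2, coexpressed with it, had at most 3 counts in every efk1 library and was at least 4.56-fold lower with each efk1 library set to 3 counts (adjusted p = 0.0154). cwp-1, at least 3.56-fold lower by the same bound, passed with the block (adjusted p = 0.000940) and not without it (0.0598). cwp-4, of the same family, had 2.13, 0.880 and 0.877 CPM in efk1 and 2.05, 0.879 and 1.298 CPM in N2 and did not pass in either fit. pkd-2 and cwp-2 each lost the call in 4 of 6 leave-one-out fits, with adjusted p up to 0.180 without efk1 replicate 1 and 0.0781 without N2 replicate 1 (edgeR). Summed over 6 such genes, of which cwp-4 was the most abundant in efk1, the level was 2.38, 1.04 and 1.38 CPM in efk1, against 5.42, 2.164 and 4.36 CPM in N2, and 1.67, 0.814 and 0.936 CPM in zip2. The listed markers of the male sex pathway summed to 2.21, 1.55 and 1.66 CPM in efk1, against 2.87, 2.164 and 3.95 CPM in N2; of 3 tested none passed without the block and 1 with it, and dmd-3 was below the filter. Both sums overlapped between the strains and were lower in efk1 in every same-numbered pair. A part of male RNA in the lower genes was not tested.

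Higher genes were better expressed, and 91 of the 110 had a mean log2 CPM of at least 2. haf-6, a half-size ABC transporter gene needed for efficient RNA interference, had 22.2, 28.5 and 28.1 CPM in efk1, against 7.47, 7.17 and 7.97 CPM in N2 (log2 fold change 1.80, SE 0.22, adjusted p = 0.000116, edgeR). It was also higher in fed animals, with 46.1, 39.9 and 46.6 CPM in efk1, against 7.74, 5.76 and 7.92 CPM in N2 (edgeR adjusted p = 6.94e-07). Starved zip2 libraries had 24.2, 42.4 and 27.1 CPM, like efk1, while starved cep1 libraries had 8.98, 6.20 and 9.58 CPM, like N2. It held the call without any single library.

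arf-1.1, an ADP-ribosylation factor gene, had 7.78, 11.1 and 14.8 CPM in efk1, against 1.74, 2.30 and 3.03 CPM in N2 (log2 fold change 2.23, SE 0.49, adjusted p = 0.0135, edgeR). irg-5, an infection response gene of the intestine, had 18.6, 16.6 and 17.999 CPM in efk1, against 3.84, 3.04 and 5.44 CPM in N2 (log2 fold change 2.09, adjusted p = 0.0296). catp-3, a P-type cation ATPase gene, had 73.2, 25.8 and 38.1 CPM in efk1, against 17.04, 5.55 and 13.96 CPM in N2, and replicate 2 was the lowest of its group in both strains (log2 fold change 1.90). The uncharacterized genes F48G7.5 and F01D5.1 gave 2.11 and 1.91. These 5 genes were named by a rule that asks for groups without overlap, so their lack of overlap adds nothing. The genes arf-1.1, irg-5, catp-3 and F48G7.5 lost the call in the fit without the block when certain single libraries were left out. The largest adjusted p was 0.0983 for arf-1.1 without N2 replicate 1, 0.182 for irg-5 and 0.128 for F48G7.5 without N2 replicate 2, and 0.266 for catp-3 without efk1 replicate 1 (edgeR). With the block all 5 passed, the largest adjusted p being 4.82e-05 for F01D5.1 (edgeR). All 306 genes called without the block did so, which makes this no separate support for the 5. Among the 10 largest changes each way with the block were also the uncharacterized genes Y47D7A.15 (2.155), R03C1.1 (2.15), Y48G8AL.12 (2.13) and T06E4.8 (2.05), and, lower, the caveolin gene cav-1 (-1.48) and the Skp1-related gene skr-7 (-1.45). None of these 6 passed without the block (adjusted p 0.0818 to 0.294, edgeR).

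**Figure D3:**
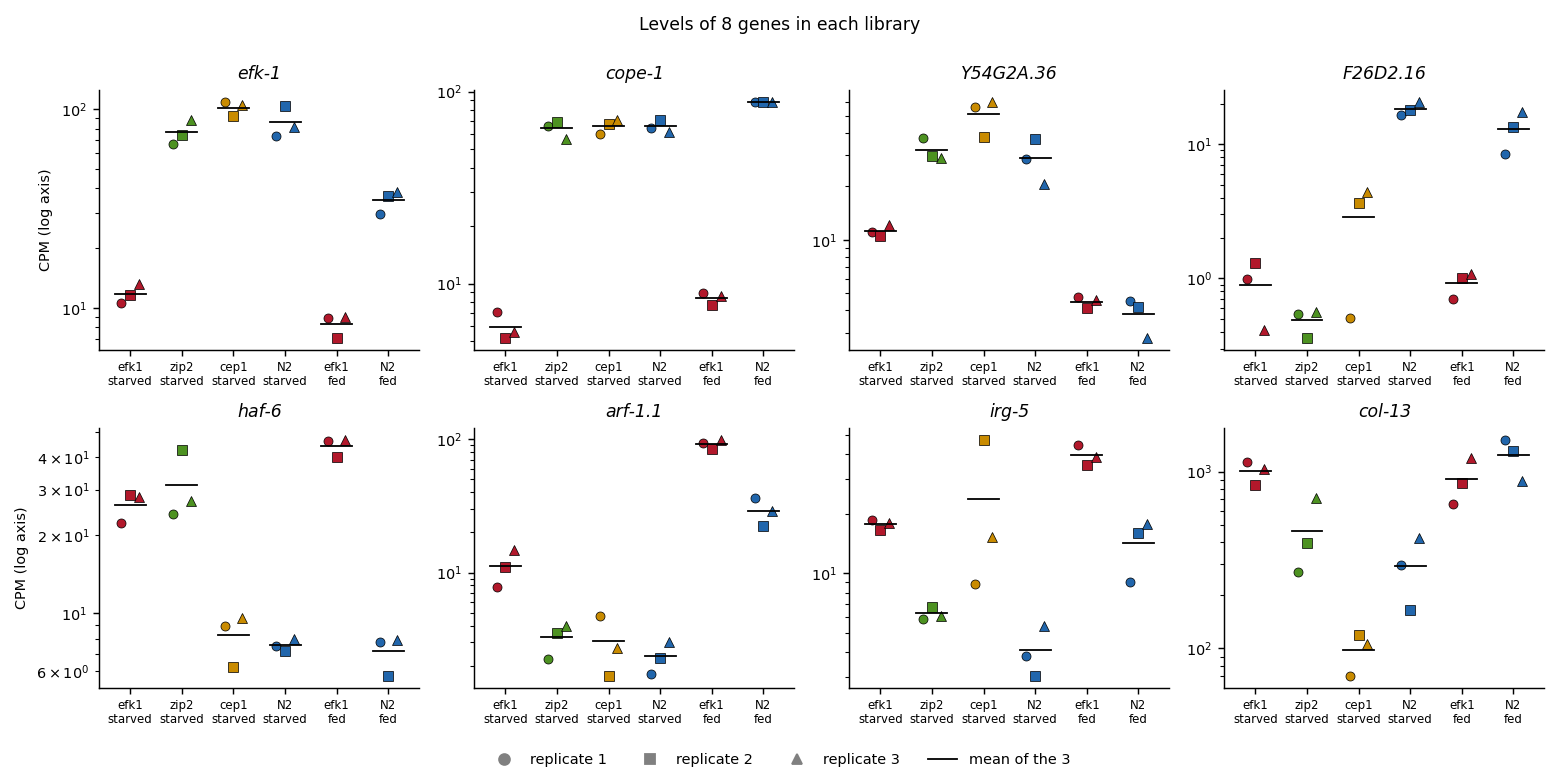
CPM of 8 genes (log axes) in each library of starved efk1, zip2, cep1 and N2 and of fed efk1 and N2, with marker shapes for replicate numbers and bars for means of 3. cope-1 is low in efk1 alone in both food states, F26D2.16 is high in N2 alone, haf-6 is high in efk1 and zip2, and arf-1.1 is higher in efk1 at both food states while fed levels exceed starved ones.

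Cuticle collagens were among the higher genes. Of 135 col collagen genes tested, 12 were called higher and 0 lower, beside 0.693% and 1.23% of all genes. With the block the counts were 88 and 1, beside 15% and 13.1% of all genes. The median log2 fold change of the list was 1.36, beside 0.077 over all genes, and was 1.34, 1.71 and 0.96 within the pairs numbered 1, 2 and 3. All 3 efk1 libraries lay above all 3 N2 libraries in 62 of the 135 genes, compared with 13.3% of all genes tested. The block without replicate 2 still called 80 higher, beside 1369 of all 15869 genes. The fit with no block and without both number 2 libraries called 0, beside 14 higher of all 15871 genes (DESeq2 with all libraries called 38). Reads shared between close family members could be split between them, and the counting is not described in enough detail to tell.

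Single collagens show the pattern. col-13 had 1130.0, 839 and 1035 CPM in efk1, against 296, 165 and 419.5 CPM in N2 (log2 fold change 1.77, SE 0.40, adjusted p = 0.0188, edgeR). col-180 had 204, 119.5 and 204 CPM in efk1, against 47.8, 27.3 and 67.2 CPM in N2, a log2 fold change of 1.89 (adjusted p = 0.0207). col-91 and col-146 gave 1.87 and 1.76, with adjusted p of 0.0431 and 0.0341. In N2, replicate 2 was the lowest library for all 4 genes, and all 4 lost the call without it in the fit with no block (adjusted p = 0.151, 0.162, 0.270 and 0.230 for col-13, col-180, col-91 and col-146, edgeR). Leaving out the libraries in turn, col-13 lost the call in 4 of 6 fits, col-180 in 4, col-91 in 4 and col-146 in 4. col-176, col-162 and col-161, the col genes among the 10 largest rises of the block fit at a mean log2 CPM of at least 2, gave 2.18, 2.14 and 2.04 there (adjusted p = 2.10e-06, 0.00297 and 0.00203) and did not pass without it (adjusted p = 0.114, 0.0806 and 0.0782, edgeR). In fed animals the col list had a median of -0.049, with 0 genes called higher and 8 lower in efk1, beside 0.0819% and 1.43% of all genes.

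The collagens of the annular furrows, whose loss makes worms short and fat, passed only with the block, where 6 of 6 were higher, beside 15% of all genes. Without it the count was 0, with 3 at an unadjusted p under 0.05 and 0 by DESeq2. dpy-7 had 25.15, 9.11 and 13.1 CPM in efk1, against 9.52, 2.23 and 6.06 CPM in N2 (block log2 fold change 1.41, adjusted p = 1.58e-05; 0.345 without the block, edgeR). The efk1 library was higher in each same-numbered pair, while efk1 replicate 2 was below N2 replicate 1. dpy-3 gave a block value of 1.54. The furrow list had a median of 1.196 in fed animals, where no member passed. A second list holds body-shape collagens outside the furrow group and the collagen prolyl hydroxylase gene dpy-18. With the block 13 of its 15 genes were higher and 2 lower, beside 15% and 13.1% of all genes. Without it 0 passed (10 higher and 2 lower at an unadjusted p under 0.05), and DESeq2 called 1 higher and 1 lower. dpy-5 had 671, 213 and 556 CPM in efk1, against 171, 38.1 and 229 CPM in N2 (block log2 fold change 1.86, adjusted p = 3.22e-05; 0.169 without the block, edgeR), and dpy-13 gave 1.85. The 2 lower members were dpy-14, with 0.574, 0.777 and 0.138 CPM in efk1, against 7.27, 3.25 and 1.70 CPM in N2, and dpy-17, with 3.28, 4.82 and 3.46 CPM in efk1, against 12.6, 9.33 and 5.25 CPM in N2. This list had a median of 1.46 in starved animals without the block and 0.87 in fed animals, where no member passed.

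Other genes of the apical matrix and of moulting were higher mainly with the block. Among cuticlins and related matrix genes, 1 of 40 was called higher, cut-4, with 42.7, 29.6 and 40.7 CPM in efk1, against 14.7, 8.45 and 19.6 CPM in N2 (log2 fold change 1.39, adjusted p = 0.0307, edgeR). The block, which called 15% of all genes higher, called 20 of them higher and 0 lower, among them noah-1 (1.36), a zona pellucida domain protein of the larval matrix, and the lipocalin gene lpr-3 (1.68). Of 42 moulting proteases and inhibitors, 23 were higher and 4 lower with the block, against 1 and 3 without it. For all genes the shares were 15% and 13.1% with the block and 0.693% and 1.23% without it. mlt-8, a moulting gene, had 66.4, 26.7 and 54.9 CPM in efk1 and 18.7, 6.22 and 23.8 CPM in N2 (block value 1.63). Hedgehog-related genes, whose products act in the cuticle and hypodermis, gave 42 higher and 2 lower of 66 with the block, and 2 higher without it. These were grd-5, with 192, 104 and 165 CPM in efk1, against 58.5, 35.5 and 81.8 CPM in N2 (log2 fold change 1.39, adjusted p = 0.0254), and the patched-related ptr-23 (1.17, adjusted p = 0.0422, edgeR). Without N2 replicate 2 the adjusted p was 0.219 for cut-4, 0.196 for grd-5 and 0.254 for ptr-23 (edgeR, no block), and the calls were lost in 4, 4 and 5 of 6 leave-one-out fits. In the 24-library fit the starved medians were 0.85 for cuticlins, 0.91 for moulting genes and 1.16 for hedgehog-related genes. The fed medians of these lists were 0.65, 0.26 and 0.49, with 0 genes called higher and 3 moulting genes called lower.

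Genes that time larval development gave no call in the fit without the block, where 0 of 22 passed (5 at an unadjusted p under 0.05, 0 by DESeq2). With the block, 9 were higher and 1 lower, beside 15% and 13.1% of all genes. Leaving out the pair numbered 2 gave 4 and 0, beside 1369 and 667 of all 15869 genes. lin-42, the worm period homolog, which oscillates with the moults, had 31.5, 12.9 and 24.6 CPM in efk1, against 10.03, 5.07 and 12.17 CPM in N2 (block log2 fold change 1.29, adjusted p = 5.74e-06; 0.166 without the block, edgeR). myrf-1, which acts in the larval moulting cycle, gave 0.79 and lin-29, a driver of the larval-to-adult switch, 0.53 (adjusted p = 0.0451). nhr-23, a nuclear receptor needed for moulting, had 24.9, 24.1 and 23.3 CPM in efk1 and 23.3, 30.4 and 26.6 CPM in N2 and did not pass in either fit. Of the 3 adult cuticle collagens listed, col-19 overlapped between the groups, with 2134, 4353 and 3109 CPM in efk1 and 2893, 3658 and 2402 CPM in N2 (log2 fold change 0.10, SE 0.38, a sign that turned under several alternatives). col-7 had 314, 274 and 482 CPM in efk1, against 109, 63.5 and 207 CPM in N2, and passed with the block (1.57, adjusted p = 3.14e-06) but not without it (adjusted p = 0.0891, edgeR). Hypodermis markers gave no common direction, since dpy-7, wrt-2 and elt-3 were higher and lin-26 lower with the block. In whole worms, fewer cells of a type and less RNA per cell cannot be told apart.

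**Figure D4:**
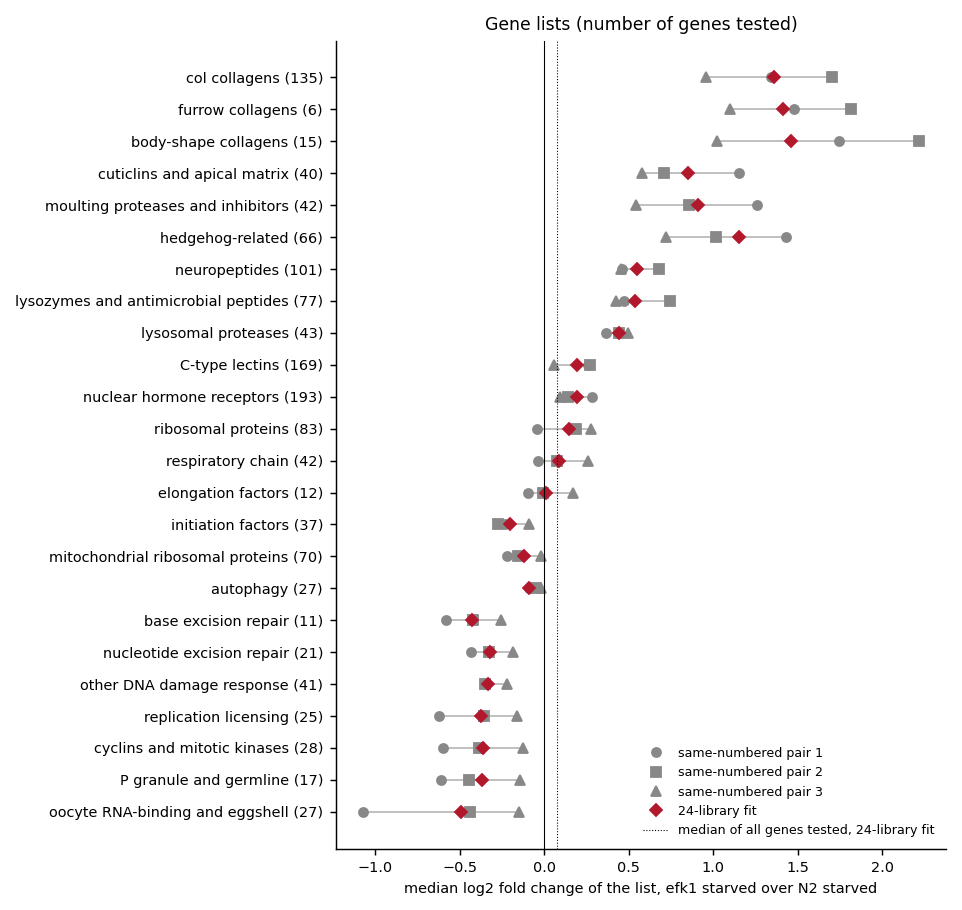
Median log2 fold change of starved efk1 over starved N2 for 24 gene lists, from the 24-library fit (red diamonds) and within each same-numbered pair (grey markers), with the number of genes tested in brackets and the median of all genes as a dotted line. The cuticle lists lie to the right in all 3 pairs (col collagens at 1.34, 1.71 and 0.96), the germline and repair lists lie to the left in all 3 pairs, and the ribosomal list straddles 0.

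Some small secreted peptides of defence were higher in the mutant. Of 77 lysozyme and antimicrobial peptide genes tested, 8 were called higher and 6 lower without the block, beside 0.693% and 1.23% of all genes. With it the counts were 34 and 8, beside 15% and 13.1% of all genes. The median log2 fold change was 0.54. Without both number 2 libraries and with no block, 0 were called higher and 4 lower, beside 14 and 147 of all 15871 genes. The fipr genes, a cluster of near-identical short genes named for their likeness to fungus-induced peptides, led the list. fipr-10 had 12.4, 18.2 and 15.9 CPM in efk1, against 4.66, 3.86 and 6.18 CPM in N2 (log2 fold change 1.65, SE 0.29, adjusted p = 0.00246, edgeR). fipr-4 gave 1.69, fipr-8 1.71 and fipr-6 2.003, and since the family members resemble each other, the split of reads among them is uncertain. dod-17, a gene downstream of DAF-16, had 12.4, 11.5 and 10.8 CPM in efk1, against 3.84, 2.71 and 7.01 CPM in N2 (log2 fold change 1.33, adjusted p = 0.0307, edgeR). Without N2 replicate 2 the adjusted p was 0.0785 for fipr-4, 0.0616 for fipr-6, 0.227 for fipr-8 and 0.218 for dod-17 (edgeR, no block). fipr-8 lost its call without any 1 of the 6 libraries and dod-17 without any 1 of 5, whereas fipr-10 kept it in all 6 such fits.

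Neuropeptide genes lay higher by a smaller amount. Of 101 tested, 98 had a positive log2 fold change, with a median of 0.55, and 56 had all efk1 libraries above all N2 libraries, beside 13.3% of all genes. Only nlp-77 was called without the block, with 649.8, 753 and 667 CPM in efk1, against 345, 299 and 387 CPM in N2 (log2 fold change 1.01, SE 0.20, adjusted p = 0.00521, edgeR; DESeq2 called 2 of the list). With the block 53 were higher and 0 lower, beside 15% and 13.1% of all genes. Leaving out the pair numbered 2, the block called 19 higher, beside 1369 of all 15869 genes. In the fit with no block and without both libraries numbered 2, nlp-77 lost the call (adjusted p = 0.148, edgeR) and no neuropeptide gene passed. nlp-67 had 13.03, 4.50 and 8.77 CPM in efk1, against 3.17, 0.879 and 3.49 CPM in N2 (block value 1.77). The 4 general neuron markers had a median of 0.092 and none passed in either fit.

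Lysosomal genes lay higher as well, and few passed without the block. In all, 41 of 43 lysosomal protease and proton pump genes had a positive log2 fold change, with a median of 0.44. Without the block 2 passed, both higher, beside 0.693% of all genes. With it 21 were higher and 1 lower, beside 15% and 13.1% of all genes. With the block and without the pair numbered 2, the counts were 4 and 0, beside 1369 and 667 of all 15869 genes. The 2 genes called without the block encode subunits of the vacuolar proton pump. vha-3 had 21.2, 23.2 and 22.01 CPM in efk1, against 14.1, 11.97 and 14.7 CPM in N2 (log2 fold change 0.70, adjusted p = 0.0481), and vha-20 had 124, 135 and 132 CPM in efk1, against 85.6, 78.9 and 91.2 CPM in N2 (0.62, adjusted p = 0.0394, edgeR). Both lost the call in all 6 leave-one-out fits, with adjusted p up to 0.286 and 0.233, both without N2 replicate 2. Markers of the intestine had a median of 0.52, with 4 of 4 higher with the block; none was called without it, and 1 had an unadjusted p under 0.05. Among muscle markers, the myosin heavy chain gene myo-3 had 298, 355 and 328 CPM in efk1, against 179, 186 and 208 CPM in N2 (log2 fold change 0.78, adjusted p = 0.0364, edgeR). It lost the call without any 1 of the 6 libraries (adjusted p up to 0.172, edgeR).

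Germline, oocyte and genome maintenance genes lay slightly lower in the mutant, though their calls came only with the block. In fed animals the medians of the repair, replication, cell cycle, oocyte and P granule lists were below 0 too. They ran from -0.73 (oocyte) to -0.076 (other damage response), beside 0.012 over all genes, and no member was called. In starved animals no list of this kind had a called gene in the fit without the block or by DESeq2. Of each list, 0 or 1 gene had an unadjusted p under 0.05 (edgeR). In base excision repair 0 of 11 passed (1 at an unadjusted p under 0.05, 0 by DESeq2), and 10 were lower with the block, beside 13.1% of all genes in that fit. The list's median was -0.43 without the block and -0.48 with it. crn-1, the flap endonuclease gene, had 98.3, 138 and 111 CPM in efk1, against 176, 185 and 134 CPM in N2 (block log2 fold change -0.55, adjusted p = 0.00751; 0.283 without the block, edgeR). The sliding clamp gene pcn-1 gave -0.50 and the AP endonuclease gene apn-1 -0.49. Nucleotide excision repair gave 11 lower of 21 with the block, among them csb-1 (-0.58), which acts in transcription-coupled repair, and the damage recognition gene xpa-1 (-0.54). Other damage response genes gave 19 lower of 41. They included polk-1, a translesion polymerase gene, with 23.5, 23.5 and 23.03 CPM in efk1, against 39.5, 38.3 and 36.7 CPM in N2, which did not overlap (block value -0.75, adjusted p = 9.38e-05), and the end-joining gene cku-80 (-0.60).

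Replication and oocyte genes were also lower with the block. Of 25 replication licensing and firing genes, 17 were lower with the block, for instance the helicase subunit gene mcm-7, with 137, 329.6 and 233 CPM in efk1, against 278, 462 and 261 CPM in N2 (block value -0.60, adjusted p = 0.0142, edgeR), and the kinase gene cdc-7 (-0.70). Cyclins and mitotic kinases gave 16 lower and 1 higher of 28, with cyb-3 at -0.61 and cdc-25.2 at -0.65. Of 27 oocyte RNA-binding and eggshell genes 23 were lower, all 3 lists beside the same 13.1% of all genes. Their summed level was 7573, 16821 and 12524 CPM in efk1, against 15156, 21799 and 13283 CPM in N2. The efk1 sum was lower in every same-numbered pair, but the groups overlapped, and replicate 2 was the highest library in both. mex-5 and pos-1, embryonic fate regulators stored in the oocyte, gave -0.69 and -0.67, the eggshell gene cpg-1 -0.65, the yolk receptor gene rme-2 -0.55 and the maturation gene oma-1 -0.61. P granule and germline genes gave 10 lower of 17, with pgl-3 at -0.46 and meg-1 at -0.78.

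Fewer of these genes passed without the libraries numbered 2, a fit of 4 libraries. With the block but without that pair, 2 of 11 base excision, 1 of 21 nucleotide excision and 3 of 41 other damage response genes were called lower. So were 3 of 25 licensing, 2 of 28 cyclin and kinase, 7 of 27 oocyte and 3 of 17 P granule genes. That fit called 667 of all 15869 genes lower. The medians stayed negative (oocyte -0.64, licensing -0.42). A block fit of 9 libraries, chosen after seeing the data, kept those numbered 2 and added starved zip2. It too called fewer of these genes lower than the 6-library block did. The counts were 5 base excision, 1 nucleotide excision, 3 other damage response, 6 licensing, 6 cyclin and kinase, 8 oocyte and 5 P granule genes. Of all 15870 genes, 782 were called lower there. Sperm genes gave few calls. Of 29 major sperm protein genes 1 was lower with the block and 0 passed without it (0 also at an unadjusted p under 0.05 and by DESeq2), with a median of 0.023 that turned negative with relative log expression factors. The yolk protein genes gave 1 higher and 1 lower of 6. Their sum was 13514, 50546 and 25206 CPM in efk1, against 29458, 46193 and 33092 CPM in N2, spread more within each strain than between them.

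The machinery of translation, in which eEF2 acts, gave few calls. No gene of the elongation, initiation, ribosomal protein or aminoacyl-tRNA synthetase lists passed without the block, by edgeR or by DESeq2, and 1 of each did at an unadjusted p under 0.05. With it, 15% of all genes were higher. Among 12 elongation factors 2 were higher, eef-1A.2 (0.46, adjusted p = 0.0231) and iff-2, an eIF5A gene, with 683, 904 and 644 CPM in efk1, against 459.6, 572 and 427 CPM in N2 (0.57, adjusted p = 0.00713, edgeR). The 83 ribosomal protein genes had a median of 0.15, and pair medians of -0.043, 0.19 and 0.27, with rpl-11.2 (0.61) and rpl-25.1 (0.59) the 2 called with the block. With the block, initiation factors gave 6 lower of 37 and mitochondrial ribosomal proteins 8 of 70, shares near the 13.1% of all genes. Without the pair numbered 2, the block called none of the genes of these 4 lists of elongation, initiation, ribosomal and mitochondrial ribosomal genes. The respiratory chain gave 3 higher and 1 lower of 42, gas-1 and ucr-2.2 among the higher (0.36 and 0.39) and the germline ATP synthase subunit gene asb-1 lower (-0.45).

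Nutrient and fasting genes passed only with the block, which called 15% of all genes higher and 13.1% lower. aakb-1, an AMPK beta subunit gene, was higher, with 24.7, 23.8 and 22.2 CPM in efk1, against 18.3, 16.5 and 17.1 CPM in N2 (block value 0.40, adjusted p = 0.0243; 0.190 without the block, edgeR). Of 16 TOR and lysosome factor genes 4 were lower and 0 higher, among them rict-1, a TOR complex component (-0.47). The 11 insulin pathway genes gave 4 lower and 1 higher. Without the pair numbered 2 the block called 0 of the TOR list and 1 of the insulin list, both counts of lower genes. None of 27 autophagy genes passed in either fit, nor by DESeq2, nor at an unadjusted p under 0.05 without the block. Of 15 genes known to be raised by fasting, 2 were higher, the lipase genes fil-1 (0.91) and lipl-1 (0.81), and 1 was lower. The share of higher genes in that list was near the 15% of all genes. Of 11 known to be lowered by fasting, 4 were higher, among them the fatty acid elongase genes elo-5, with 43.0, 31.8 and 47.6 CPM in efk1, against 26.4, 24.3 and 26.7 CPM in N2 (block value 0.61), and elo-2 (0.54). Stress chaperones gave 10 higher and 3 lower of 30, with pdi-2, a disulfide isomerase that also serves collagen hydroxylation, at 0.61 and hsp-12.2 at 0.60. Without the pair numbered 2 the chaperone counts were 4 and 0, beside 1369 higher and 667 lower of all 15869 genes.

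In fed animals the same genotype gave 240 calls (1.51%), 13 higher (0.0819%) and 227 lower (1.43%) in efk1. Without 1 fed library the count was 58 to 148 in 5 of 6 fits, lowest without efk1 replicate 1, and 238 without N2 replicate 1. The fed libraries were not paired by number under the same check. The difference between the starved and the fed contrast, tested as an interaction of genotype and food, passed for 39 genes (0.246%), all with a larger value in starved animals. Of them, 5 were col collagens and 8 fipr genes, and 12 were also called higher in starved efk1. All 39 had a negative point estimate in fed efk1 (median -1.18) and 37 a positive one in starved efk1 (median 0.86). fipr-10 had 12.4, 18.2 and 15.9 CPM in starved efk1, against 4.66, 3.86 and 6.18 CPM in starved N2, and 6.95, 7.98 and 6.15 CPM in fed efk1, against 14.8, 15.6 and 8.61 CPM in fed N2, an interaction of 2.54 on the log2 scale (SE 0.41, adjusted p = 0.0167, edgeR). Starved efk1 and fed N2 were the higher groups. The count was 0 when any 1 of 7 libraries was left out, namely efk1 starved replicate 2 or 3, N2 starved replicate 1 or 2, efk1 fed replicate 1 or 3, and N2 fed replicate 2. In those fits 634 to 919 genes had an unadjusted p under 0.05 (edgeR), and DESeq2 with all libraries called 110. The interaction count was 16 without efk1 fed replicate 2 and 25 without efk1 starved replicate 1.

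**Figure D5:**
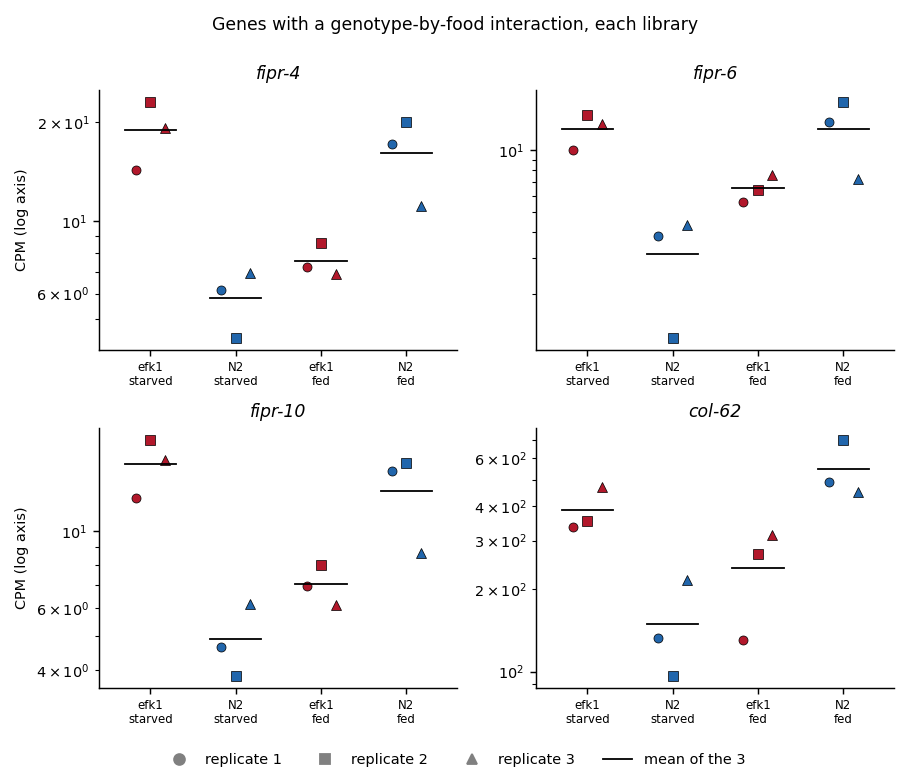
CPM (log axes) of fipr-4, fipr-6, fipr-10 and col-62 in each library of starved efk1, starved N2, fed efk1 and fed N2, with bars for means of 3 and marker shapes for replicate numbers. In starved animals all efk1 libraries lie above all N2 libraries, and in fed animals the efk1 means lie below the N2 means.

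The last comparisons set starved efk1 against the other starved mutants, as labelled. Starved efk1 differed from starved zip2 in 12 genes (0.0756%), 5 higher (0.0315%) and 7 lower (0.0441%). Lower in efk1 were cope-1 (log2 fold change -3.42, adjusted p = 1.40e-11), efk-1, Y54G2A.36, F57A10.2, R03D7.2, K09H9.7 and timm-17B.2, the last 4 named after their values were seen. F57A10.2 had 0.983, 0.466 and 0.554 CPM in efk1, against 3.83, 5.88 and 4.68 CPM in zip2 (log2 fold change -2.81), and R03D7.2 had 6.19, 4.35 and 4.80 CPM in efk1, against 12.16, 15.01 and 16.5 CPM in zip2. Same-numbered libraries of these groups deviated together too (deviation correlations 0.55, 0.70 and 0.38), as did efk1 replicate 1 and zip2 replicate 3 (0.42). With the block 1762 genes passed. Without the block the count was 7 without zip2 replicate 1 and 38 without zip2 replicate 3. Starved efk1 differed from starved cep1 in 3096 genes (19.5%), 2033 higher (12.8%) and 1063 lower (6.7%). Here the numbers did not pair (correlations -0.022, -0.68 and -0.067), 867 genes passed in a fit of the 6 libraries alone, and 1288 passed without cep1 replicate 1, 1701 without efk1 replicate 1 and 1755 without efk1 replicate 3. col-13, for example, had 1130.0, 839 and 1035 CPM in efk1, against 70.1, 119.2 and 106 CPM in cep1.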

How the data were processed

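Gene expression was measured by RNA-seq in 24 libraries, 3 in each of 8 groups of strain and food. Per the labels' protocols the libraries were strand-specific and read as 75-base paired ends. The submitters' processing notes name Trimmomatic 0.36, Salmon 0.9.1, edgeR and the WBcel235 assembly, without role or order; how transcripts were summed to genes is not given in the sources used here. The authors deposited estimated counts per gene, not normalized, in 43800 entries, of which 20670 were 0 in every library and 10.6% of nonzero values had a fraction. They were rounded to whole numbers here, and every column of the table belonged to a library of the series, so 0 per-sample columns were left unused.

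Genes were kept by edgeR's expression filter (minimum count 10, minimum total 15), which left 15871. Counts were scaled by TMM and fitted with edgeR 4.0.16 (limma 3.58.1, R 4.3.3) by the quasi-likelihood method, robustly, with 1 mean per group and no block. All 24 libraries shared the estimate of spread (16 residual degrees of freedom, common biological coefficient of variation 29.0%). A call is a Benjamini-Hochberg adjusted p under 0.05 over all genes tested, and tests are two-sided. Principal components used log2 CPM with a prior count of 2. Gene positions come from the WBcel235 annotation, in which 15672 of the genes tested were matched by name and 199 were not.

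Same-numbered efk1 and N2 starved libraries were taken as paired because the correlation of their deviations from the group means across genes was above 0.1 in all 3 pairs (0.54, 0.75 and 0.39). The check did not ask that unlike numbers correlate less, and efk1 replicate 1 with N2 replicate 3 gave 0.49. It therefore cannot decide whether replicates 1 and 3 are paired by number. The source of the pairing is not in the labels. The fit with the replicate number as a block is therefore given beside the results that it changes. Alternatives were relative log expression factors, no filter, DESeq2 1.42.0, only the groups compared, other sets of libraries with the block, and leaving out each library.

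The genes named are efk-1 and its close pathway, the 10 largest changes each way in each of the 2 fits among genes whose mean log2 CPM reached 2 and whose groups (or, with the block, pairs) all differed one way, and up to 4 genes from each list. Genes outside this rule are said to have been chosen after their values were seen, or are listed members given by role. The comparison, its lists and its tests were chosen with earlier results of these data known. No unique molecular identifiers are mentioned, so the precision set by depth covers counting error only. Figures were drawn with matplotlib 3.10.9 in Python 3.11.15.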

Additional observations from a re-analysis of the deposited data

Results flagged for a closer look

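In 4 of the named genes the genotype difference in starved animals differed from that in fed animals by the test of the difference itself (edgeR quasi-likelihood test of genotype by food, Benjamini-Hochberg adjusted over all genes). The value was 2.54 on the log2 scale for fipr-10 (SE 0.41, adjusted p = 0.0167), 2.78 for fipr-4 (SE 0.50, adjusted p = 0.0220), 2.97 for fipr-6 (SE 0.59, adjusted p = 0.0415) and 2.59 for col-62 (SE 0.53, adjusted p = 0.0436). fipr-4 had 14.3, 23.1 and 19.2 CPM in starved efk1, against 6.14, 4.397 and 6.92 CPM in starved N2, and 7.22, 8.58 and 6.87 CPM in fed efk1, against 17.2, 19.99 and 11.1 CPM in fed N2. fipr-6 had 9.995, 14.9 and 13.4 CPM in starved efk1, against 3.84, 1.22 and 4.33 CPM in starved N2, and 5.602, 6.42 and 7.59 CPM in fed efk1, against 13.8, 17.2 and 7.24 CPM in fed N2. col-62, a collagen gene of the adult cuticle, had 337, 355 and 471 CPM in starved efk1, against 133, 96.5 and 216 CPM in starved N2, and 130.2, 267 and 315 CPM in fed efk1, against 490.4, 698 and 450.4 CPM in fed N2. Starved efk1 lay above starved N2 in all 3 of these genes, and the fed efk1 means lay below the fed N2 means. No gene passed the interaction test when any 1 of 7 libraries was left out, so these 4 calls were lost in those fits. Mid-L4 worms approach the final moult, and starved groups were 8 h older than fed ones; a part of developmental stage in these values was not tested.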

How the results depend on the processing

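Of 306 genes called between starved efk1 and starved N2, other settings gave 490 with DESeq2, 177 with only the 6 libraries and no block, 161 without both libraries numbered 2 (chosen after seeing the data) and 159 to 313 without 1 library. With the replicate block the counts were 4461 in the 6 libraries, 4835 with relative log expression factors, 2741, 2036 and 5246 without the pair numbered 1, 2 and 3, 2465 in the 9 libraries of efk1, zip2 and N2 (chosen after seeing the data) and 77 in all 12 starved libraries, where the cep1 numbers do not pair. In fed efk1 against fed N2, 240 calls became 409 with only those groups, 381 with the block and 58 to 238 without 1 library. The interaction gave 39 calls, 39 with the block, 21 with no filter, 110 with DESeq2 and 0 to 39 without 1 library. Against zip2, 12 calls became 40 with DESeq2, 2 with only those groups, 1762 with the block and 7 to 38 without 1 library. Against cep1, 3096 calls became 867 with only those groups, 742 with the block and 1288 to 3541 without 1 library. The 113 genes followed kept their sign in these settings except for 11 values. Over the leave-one-out fits eef-2 lay between -0.135 and 0.407, aak-1 between -0.116 and 0.00972 and col-19 between -0.187 and 0.322; eef-2 turned without N2 replicate 1 (-0.00166) or efk1 replicate 2, aak-1 without N2 replicate 2, and col-19 without N2 replicate 3 (-0.0345) or efk1 replicate 2. aak-1 was also 0.00867 with the block without replicate 2 and 0.0516 without both libraries numbered 2. col-19 was also -0.0145 without both libraries numbered 2 and, with the block, -0.0172 under relative log expression factors, -0.0750 without replicate 2 and -0.129 without replicate 3. Calls on named genes were lost in 179 and gained in 338 of the values under other settings. List medians moved by more than the SD of the 3 pairs in 99 values and by less in 747. Relative log expression factors shifted the median of all genes to 0.028, against 0.077 with TMM. The cause of these differences was not tested. Depth limits the lower genes: 56 of 196 had at most 3 counts in every efk1 library, and their fold changes depend on the prior count.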

Other observations

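Genes of chromosome X lay higher in starved efk1 than those of the autosomes. Over 2131 tested X genes the median log2 fold change of starved efk1 over starved N2 was 0.35 (0.31 with the replicate block), and it was 0.38, 0.39 and 0.26 in the pairs numbered 1, 2 and 3. The medians of the 5 autosomes lay between -0.055 and 0.16. With the block, 26.6% of X genes were called higher and 4.27% lower, beside 15% and 13.1% of all genes. Without the block 30 of the 2131 X genes were called higher and 11 lower, beside 0.693% and 1.23% of all genes. X-linked genes are known to be expressed little in the worm germline, and germline and oocyte genes lay below 0 in the same libraries; a part of the germline in these values was not tested.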
